A study of Mus musculus with 6 samples.

Results

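HIF-1 alpha, its oxygen sensors and 4 of its hypoxia targets were followed in activated lung ILC2s (aILC2s) with and without melatonin. The 10 genes were taken by name from the deposited table, and all 10 were found among its 16381 genes. They are *Hif1a*, the oxygen-regulated subunit of the transcription factor HIF-1, the hydroxylase genes *Egln1*, *Egln2*, *Egln3* and *Hif1an*, the ubiquitin ligase subunit gene *Vhl*, and the target genes *Vegfa*, *Bnip3*, *P4ha1* and *Ero1a*. The cells were wild type ILC2s sorted from the lungs of BALB/c mice that had received intranasal IL-33 at 0.5 µg a day for 3 days, so both groups carry the IL-33 challenge. Sorted cells were then held in culture for 24 h, in the melatonin group with the hormone at 250 µM and in the vehicle group with DMSO, the solvent of melatonin. Each group had 3 samples. The methods give female mice aged 6 to 8 weeks for all experiments, and no source used here says whether the samples of a group came from separate mice or pools, so the p-values measure the spread between these samples.

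ILC2s are innate lymphocytes of barrier tissues that release type 2 cytokines when epithelial alarmins such as IL-33 reach them. In cells with enough oxygen, the prolyl hydroxylases encoded by the *Egln* genes modify HIF-1 alpha, the VHL ubiquitin ligase binds the modified protein, and the proteasome destroys it. When oxygen is scarce the protein escapes this step, pairs with its partner ARNT and binds a short DNA core, the hypoxia response element, beside genes of glucose use, vessel growth, mitochondrial turnover and collagen processing. HIF-1 alpha is therefore controlled mostly as a protein, while the values here are transcript levels.

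All 10 markers of ILC2s that were looked for were listed. Their summed level was between 107579 and 113738 normalized counts with vehicle and between 87250 and 90615 with melatonin. Its members went both ways. *Il1rl1* and *Rora* were called higher, *Klrg1* (log2 fold change -2.16), *Thy1* (-2.88), *Areg* (-1.69), *Il7r* and *Il2ra* lower, and 3 were not called, where 24.5% of all genes tested were called higher and 24.7% lower. Of 7 marker lists of other cells, 5 had a summed level with melatonin below every vehicle sample. Among single genes tested 30.3% lay below every vehicle sample, but sums over a list and single genes are not a like comparison. The B cell list rests on 2 of its 5 genes and the endothelium and fibroblast list on 1 of 6, *Pecam1*. The T cell list, of which 4 of 7 genes were listed and *Cd4*, *Cd8a* and *Cd5* were not, summed to between 1601 and 1744 with vehicle and to between 432 and 718 with melatonin. The macrophage and monocyte list (7 of 8 genes listed) went from between 1427 and 1648 to between 366 and 869. The NK and ILC1 list went from between 5944 and 7224 to between 75.6 and 210.1. *Gzma* made up most of this sum, between 5677 and 7021 with vehicle and as low as 56.0 with melatonin. The airway epithelium list reached 2325 in vehicle replicate 3, where *Scgb1a1* alone was at 1045, and lay between 941 and 1261 in the other samples. That sum is carried by *Epcam*, which was called higher (log2 fold change 0.72). Of its other tested genes 4 were called lower and 1, *Cdh1*, was not. *Sftpc* went from between 122 and 389 normalized counts to between 3.02 and 6.54, *Krt8* was at 0 and *Scgb1a1* at 1.01 or less in every melatonin sample, and *Krt18* was also called lower. The sort kept live CD45+ lineage-negative cells with ST2 and CD127. The lineage antibodies would remove T cells, B cells, NK cells and myeloid cells, and the CD45 gate epithelium and endothelium. Whether these transcripts came from other cells or from the ILC2s, and their part in the values of the HIF genes, was not tested. *Xist*, the transcript of the inactive X chromosome, reached 579 normalized counts in melatonin replicate 2 and 1091 in replicate 3 and was at 13.6 or less in the other samples, and the Y-linked *Ddx3y* was at 0 in those 2 libraries and between 746 and 1071 elsewhere. *Eif2s3y*, *Kdm5d* and *Uty*, also Y-linked, were listed in the same 4 libraries and at 0 in the same 2. These Y-linked transcripts do not match the female mice of the methods, and the sex-linked content of the libraries differs between the groups, since both libraries without them are melatonin samples. None of the 10 genes lies on chromosome X or Y, while *Pgk1*, a glycolytic target named below, lies on X. The part of this difference between the libraries in the values of genes on any chromosome was not tested. The labels also number the libraries of each group in a separate run, so a batch along those runs and the treatment cannot be told apart. The samples held between 17056267 and 20511700 estimated counts, and the smallest estimated count of any of the 10 genes in a sample was 123.

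The stretch of 250 bases before the start of the canonical transcript is shown for *Hif1a* itself, for *Egln3*, the 1 gene of the set that was called lower, and for the targets *Bnip3* and *P4ha1*. They were read from the GRCm39 genome on the strand of the gene, 5′ to 3′, with the transcript start directly after the last base. They lie at chr12:73954320-73954569 (+ strand), chr12:54250674-54250923 (- strand), chr7:138511254-138511503 (- strand) and chr10:59158842-59159091 (+ strand). Capitals mark the core of the hypoxia response element, searched as ACGTG or GCGTG on both strands, so CACGT or CACGC in capitals is the core read on the opposite strand and CACGTG is counted once on each strand.
Hif1a: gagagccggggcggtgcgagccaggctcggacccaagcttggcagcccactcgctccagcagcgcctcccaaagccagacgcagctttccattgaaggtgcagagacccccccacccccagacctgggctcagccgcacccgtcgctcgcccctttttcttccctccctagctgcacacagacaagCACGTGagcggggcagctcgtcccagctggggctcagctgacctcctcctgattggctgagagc
Egln3: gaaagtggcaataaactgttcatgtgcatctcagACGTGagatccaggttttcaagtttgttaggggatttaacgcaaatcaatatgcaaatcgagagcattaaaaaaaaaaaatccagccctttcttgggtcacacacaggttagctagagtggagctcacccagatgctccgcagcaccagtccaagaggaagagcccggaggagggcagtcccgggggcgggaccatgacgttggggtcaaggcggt
Bnip3: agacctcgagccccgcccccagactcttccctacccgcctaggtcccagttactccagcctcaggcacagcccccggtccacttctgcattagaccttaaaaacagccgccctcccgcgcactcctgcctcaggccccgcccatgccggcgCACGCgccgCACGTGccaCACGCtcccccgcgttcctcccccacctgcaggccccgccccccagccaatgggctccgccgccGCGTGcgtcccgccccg
P4ha1: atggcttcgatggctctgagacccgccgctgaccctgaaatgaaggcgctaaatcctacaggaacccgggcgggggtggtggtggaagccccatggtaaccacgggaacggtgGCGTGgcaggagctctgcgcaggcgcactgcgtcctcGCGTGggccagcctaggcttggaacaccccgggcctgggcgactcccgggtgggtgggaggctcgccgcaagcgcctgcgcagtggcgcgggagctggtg
In these windows the *Bnip3* promoter held 5 cores, of which 4 lay between 99 and 81 bases before the start, 2 of these being a single CACGTG. *P4ha1* held 2 and *Hif1a* 2, the latter a single CACGTG. *Egln3* held 1, at 216 bases before the start. Among the other 6 genes, *Egln2* held 4, *Ero1a* 3 and *Egln1* 2, the latter again a single CACGTG. No core was in the window of *Hif1an*, *Vhl* or *Vegfa*. A core was present in 7 of the 10 windows and in 53.2% of the 12064 promoters of tested protein-coding genes. That share was 57.1% for genes called higher with melatonin, 50.3% for genes called lower and 52.5% for the rest. A match is a run of letters, not a bound site.

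With melatonin, 6 of the 10 genes were called higher by limma at an adjusted p under 0.05 and 1 was called lower, where 24.5% of the 14419 genes tested were called higher and 24.7% lower. The 6 were *Vhl*, *Hif1a*, *P4ha1*, *Bnip3*, *Hif1an* and *Ero1a*, and the 1 was *Egln3*. *Egln1*, *Egln2* and *Vegfa* did not pass. All 3 melatonin values lay above all 3 vehicle values for the same 6 genes and below them for *Egln3*, against 30.0% and 30.3% of all genes tested. The median log2 fold change was 0.35 over the 10 genes and -0.00 over all genes tested. With 3 samples in each group, 0.1 is the smallest two-sided p that an exact permutation test of a single gene can reach. In these bulk samples, fewer cells of a type and less RNA per cell cannot be told apart.

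**Figure D1:**
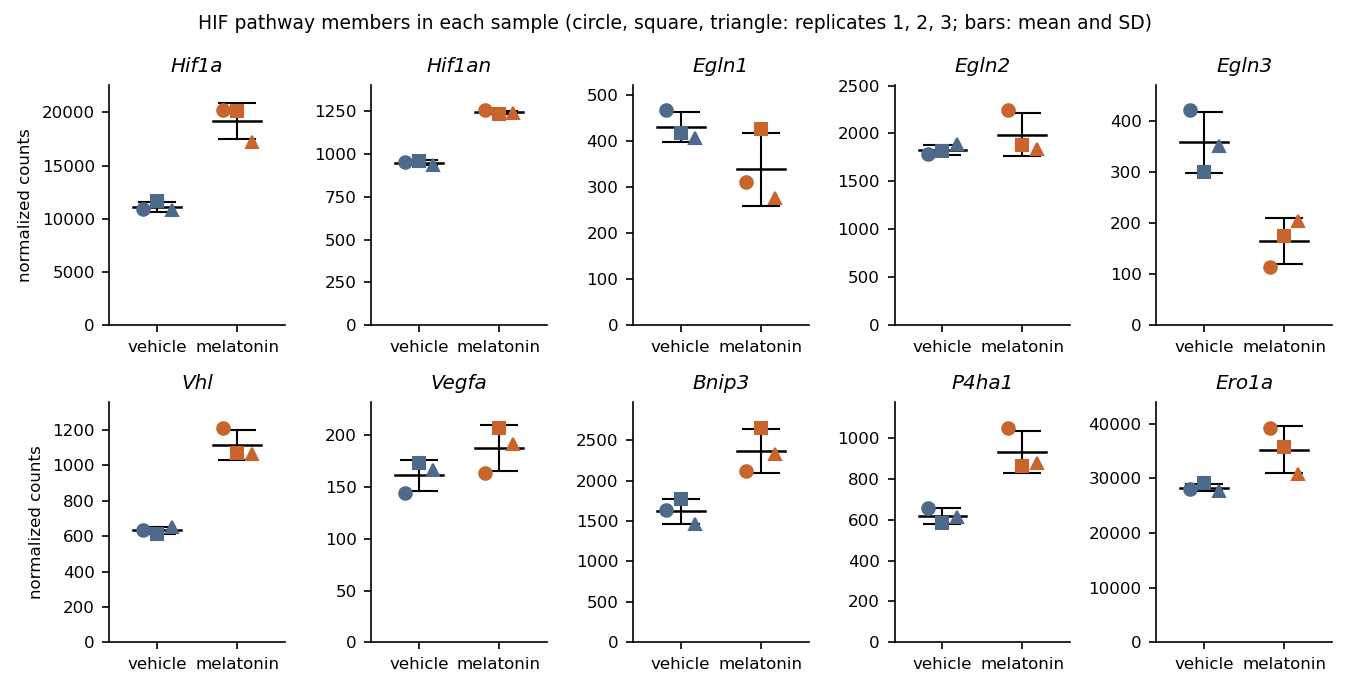
Normalized counts of the 10 genes in each sample, 1 panel per gene with the vertical axis from 0. Points are the 3 vehicle (blue) and 3 melatonin (orange) samples, with bars at the mean and SD. The groups are apart for *Hif1a*, *Hif1an*, *Egln3*, *Vhl*, *Bnip3*, *P4ha1* and *Ero1a* and overlap for *Egln1*, *Egln2* and *Vegfa*.

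*Hif1a* (ENSMUSG00000021109, chr12:73948149-73996321, + strand) was at 10890, 11650 and 10796 normalized counts in vehicle replicates 1, 2 and 3. With melatonin it was at 20187, 20096 and 17218. The groups were far apart, with the lowest melatonin sample well above the highest vehicle sample, and melatonin replicate 3 was the lowest of its group. The mean went from 11112 ± 468 (SD, n = 3) to 19167 ± 1688 (SD, n = 3), a rise of 72.5%. The log2 fold change was 0.78 (standard error 0.09, 95% interval 0.58 to 0.98, limma adjusted p = 0.000244). The long noncoding RNA *Gm15283*, annotated across *Hif1a* on the opposite strand, reached 52.8 normalized counts at most in a sample. The cDNA kit does not mark the strand, so reads of the pair cannot be told apart where they overlap.

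Of the 4 oxygen sensors, *Egln3* was called lower, *Hif1an* higher, and *Egln1* and *Egln2* were not called. *Egln3* (chr12:54225767-54250673, - strand) encodes PHD3, a prolyl hydroxylase that is itself a known HIF target. It was at 422, 302 and 353 normalized counts with vehicle and at 115, 176 and 205 with melatonin. The highest melatonin value was still below the lowest vehicle value, and melatonin replicate 1 was the lowest of all. The mean fell by 53.9%, and the log2 fold change was -1.14 (standard error 0.22, 95% interval -1.65 to -0.64, limma adjusted p = 0.00322). *Egln1* (chr8:125635308-125676865, - strand) encodes PHD2, the main prolyl hydroxylase of HIF-1 alpha in most cells. It was at 468, 419 and 407 normalized counts with vehicle and at 312, 427 and 277 with melatonin. Melatonin replicate 2 lay within the vehicle range and the other 2 melatonin samples were below it. The log2 fold change of *Egln1* was -0.37 (95% interval -0.74 to 0.00, limma adjusted p = 0.0902). Leaving out 1 sample at a time moved it between -0.24, without melatonin replicate 3 (limma adjusted p = 0.245), and -0.55, without melatonin replicate 2, the 1 such fit past the threshold (limma adjusted p = 0.0138). It also passed under upper quartile scaling (limma adjusted p = 0.0490) and under a correction for transcript length (limma adjusted p = 0.0264).

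*Egln2* (chr7:26853588-26866408, - strand) encodes PHD1, a prolyl hydroxylase found mainly in the nucleus. It was at 1787, 1813 and 1888 normalized counts with vehicle and at 2242, 1882 and 1837 with melatonin. Melatonin replicate 1 was high and the other 2 melatonin samples lay within the vehicle range. Its log2 fold change was 0.11 with a 95% interval from -0.10 to 0.33 (limma adjusted p = 0.336), and it was 0.02 without melatonin replicate 1 (limma adjusted p = 0.786). *Hif1an* (chr19:44551286-44568723, + strand) encodes FIH, the asparaginyl hydroxylase that blocks the binding of coactivators to HIF-1 alpha. It was at 953, 960 and 935 normalized counts with vehicle and at 1255, 1233 and 1238 with melatonin. The samples within each group were close together and the groups did not overlap. The mean went from 949 ± 13.1 to 1242 ± 11.3 (SD, n = 3 each), a log2 fold change of 0.39 (standard error 0.08, 95% interval 0.22 to 0.56, limma adjusted p = 0.00326).

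*Vhl* (chr6:113600920-113608599, + strand) encodes the subunit of the ubiquitin ligase that recognizes hydroxylated HIF-1 alpha. It was at 635, 612 and 649 normalized counts with vehicle and at 1213, 1072 and 1063 with melatonin. Every melatonin sample was far above the vehicle samples, and melatonin replicate 1 was the highest. The mean rose by 76.5%, from 632 ± 19.0 to 1116 ± 84.3 (SD, n = 3 each), and the log2 fold change was 0.82 (standard error 0.09, 95% interval 0.61 to 1.02, limma adjusted p = 0.000238). The ratio of *Hif1a* to *Vhl* normalized counts had a mean of 17.6 with vehicle and of 17.2 with melatonin. The single ratios were 17.2, 19.0 and 16.6 with vehicle and 16.6, 18.7 and 16.2 with melatonin, and the groups overlapped. The ratio of *Hif1a* to *Egln3* was 25.8, 38.6 and 30.6 with vehicle and 175.8, 114.2 and 84.0 with melatonin, with no overlap. These ratios are descriptions and were not tested.

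Of the 4 targets, *P4ha1*, *Bnip3* and *Ero1a* were called higher and *Vegfa* was not. *P4ha1* (chr10:59159092-59209126, + strand), the catalytic subunit of the enzyme that hydroxylates proline in collagen, was at 659, 582 and 613 normalized counts with vehicle and at 1050, 862 and 878 with melatonin. The groups did not overlap and melatonin replicate 1 was the highest. The log2 fold change was 0.58 (standard error 0.11, 95% interval 0.34 to 0.83, limma adjusted p = 0.00238). *Bnip3* (chr7:138490690-138511253, - strand), a receptor on the outer mitochondrial membrane that marks mitochondria for autophagy, was at 1633, 1769 and 1462 normalized counts with vehicle and at 2117, 2655 and 2324 with melatonin. The lowest melatonin sample, replicate 1, was above all vehicle samples. Its log2 fold change was 0.54 (standard error 0.11, 95% interval 0.30 to 0.79, limma adjusted p = 0.00353). *Vegfa* (chr17:46327919-46343309, - strand), the growth factor of blood vessels, was at 145, 173 and 167 normalized counts with vehicle and at 163, 208 and 192 with melatonin. Melatonin replicate 1 lay within the vehicle range. The log2 fold change of *Vegfa* was 0.21 with a 95% interval from -0.14 to 0.56 (limma adjusted p = 0.280). It was between 0.13 without vehicle replicate 1 and 0.31 without melatonin replicate 1, and was not called in either fit.

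*Ero1a* (chr14:45520541-45556228, - strand), the oxidase that passes electrons from newly formed disulfide bonds of the endoplasmic reticulum to oxygen, was the most abundant of the 10. It was at 28067, 29076 and 27762 normalized counts with vehicle and at 39288, 35655 and 30807 with melatonin. The vehicle samples were close together and the melatonin samples were spread, with replicate 3 nearest to the vehicle range. The mean went from 28302 ± 688 to 35250 ± 4255 (SD, n = 3 each), a log2 fold change of 0.31 (standard error 0.10, 95% interval 0.08 to 0.54, limma adjusted p = 0.0315). This call was kept in 12 of 20 alternatives, the fewest of the 7 calls. It was lost without vehicle replicate 1, 2 or 3 (limma adjusted p = 0.101, 0.0779 and 0.101), without melatonin replicate 2 (0.0752), under upper quartile scaling (0.0604), without the trend of limma (0.0728) and with the transcript length correction, where the log2 fold change was 0.17 (limma adjusted p = 0.127).

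**Figure D2:**
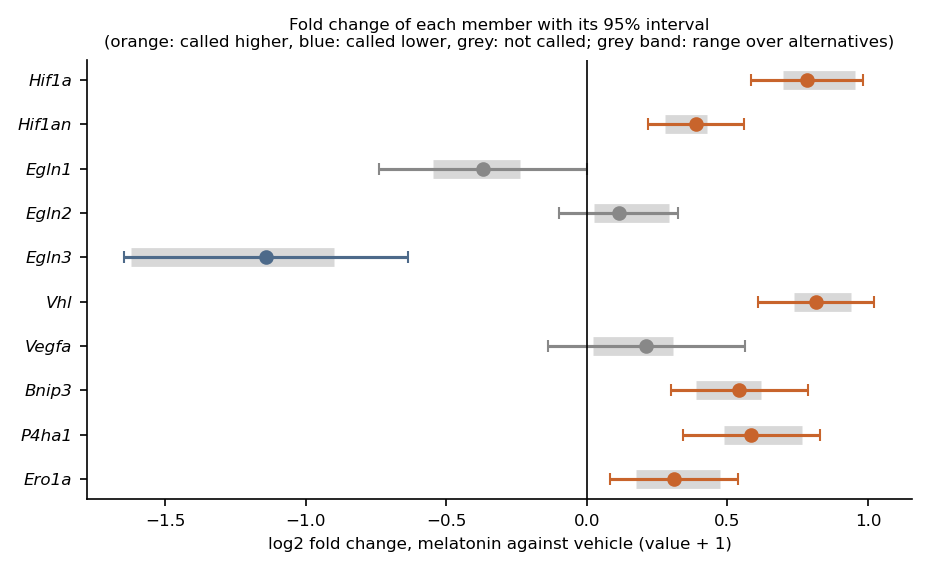
Log2 fold change of each gene, melatonin against vehicle, on a log2 scale with 1 added to each value. Points and whiskers are the limma estimate and its 95% interval, and the wide grey bands span the estimates under the 20 alternatives. Only *Egln3* and *Egln1* lie left of 0, and the whiskers of *Egln1*, *Egln2* and *Vegfa* reach 0.

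Melatonin replicates 2 and 3, the libraries with *Xist*, were left out in an alternative added once the values were known, which leaves melatonin replicate 1 against the 3 vehicle samples and assumes that the lone sample varies like the others. The log2 fold change was then 0.86 for *Hif1a*, 0.94 for *Vhl*, 0.77 for *P4ha1*, 0.47 for *Ero1a*, 0.40 for *Hif1an* and 0.39 for *Bnip3*, each still past the threshold of limma. For *Egln3* it was -1.62. *Egln1* at -0.46 (limma adjusted p = 0.0279) and *Egln2* at 0.29 (limma adjusted p = 0.0196) also passed in that fit, and *Vegfa* at 0.02 did not. The coefficient of variation was larger among melatonin than among vehicle samples for 9 of the 10 genes and smaller for 1, *Hif1an*, at 0.91% against 1.38%. At between 891 and 1344 estimated counts in a sample, both values of *Hif1an* lie below what counting error alone would give. Their order is thus no property of the gene. The coefficient of variation was largest for *Egln3* with melatonin, at 27.9%.

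Levels of different genes were compared as normalized counts per kb of the canonical transcript. With vehicle, *Ero1a* led at 6392 per kb, followed by *Hif1a* at 1622 and *Egln2* at 858. *Bnip3* at 445, *Vhl* at 226, *P4ha1* at 205 and *Hif1an* at 153 came next, and the order ended with *Egln3* at 133, *Egln1* at 97.7 and *Vegfa* at 46.6. Neighbors in this order had no overlapping samples except *Hif1an* and *Egln3*. With melatonin the first 7 kept their places, at 7961, 2799, 932, 649, 399 and 308 per kb for the first 6, with *Hif1an* after them. The last 3 were then *Egln1* at 76.8, *Egln3* at 61.5 and *Vegfa* at 54.2, and in this end of the order *Egln3* overlapped with both of the others. *Egln2* was thus the most abundant of the 3 prolyl hydroxylase transcripts per kb in both groups. Its ratio to *Egln3* in normalized counts had a mean of 5.20 with vehicle and of 13.1 with melatonin, with no overlap between the groups.

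**Figure D3:**
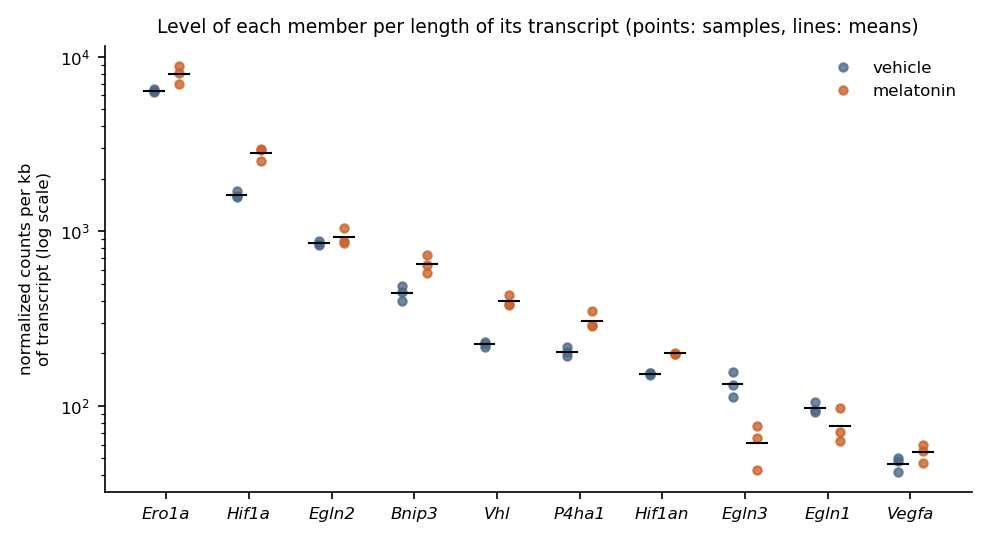
Normalized counts per kb of transcript on a log axis, for the 10 genes in the order of their vehicle means. Points are samples (blue, vehicle, orange, melatonin) and lines are means. *Ero1a* is highest and *Vegfa* lowest in both groups, and *Egln3* is the gene whose place falls with melatonin.

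By the distance between centered log2 values over the 6 samples, the genes most like *Hif1a* among the 9990 genes whose mean reached 100 normalized counts were *Swap70*, *Zfp322a*, *Sec23a*, *Mfsd14b* and *Rab28*, at root mean square distances between 0.02 and 0.03. *Swap70* was at 1122, 1241 and 1135 normalized counts with vehicle and at 2084, 2128 and 1811 with melatonin. Like *Hif1a*, it was lowest among melatonin samples in replicate 3. The 6 samples share their libraries and the treatment, so the likeness is a description. Of the other 9 genes of the set, *Vhl* was nearest to *Hif1a* at 0.09 (rank 181) and *Egln3* was farthest at 1.02 (rank 9587).

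The rest of the pathway was read from gene lists by role. Among the HIF subunits and coactivators, 7 of 8 genes were tested, of which 2 were called higher, 1 lower and 4 not, near the 24.5% and 24.7% of all genes tested. The median log2 fold change was 0.21, but 0.08 with the transcript length correction. With no filter on low values it was -0.03, since *Hif3a* then entered the list. Without melatonin replicate 3 the median was 0.12, and 3 genes were called lower. *Arnt*, the partner of HIF-1 alpha, was called higher beside *Hif1a*, from 903 ± 60.5 to 1282 ± 99.5 normalized counts (log2 fold change 0.50, limma adjusted p = 0.00264). Its relative *Arnt2* fell from 331 ± 47.4 to 98.1 ± 20.5 (log2 fold change -1.75, limma adjusted p = 0.000204). *Epas1*, the gene of HIF-2 alpha, had a log2 fold change of 0.21 and was not called (limma adjusted p = 0.126). *Hif3a* was at 8.40, 7.50 and 2.10 normalized counts with vehicle and at 3 counts or fewer, the floor used here, in every melatonin sample.

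Of the 5 subunits of the VHL ligase, *Vhl* was called higher and *Rbx1*, its RING subunit, lower, and *Elob*, *Eloc* and *Cul2* were not called, which is near the 24.5% and 24.7% of all genes tested. *Rbx1* went from 2867 ± 180 to 2307 ± 184 normalized counts, and its log2 fold change of -0.32 (limma adjusted p = 0.0169) lost its call without vehicle replicate 1 (limma adjusted p = 0.0655) or 2 (limma adjusted p = 0.0726). Among 5 other factors that act on the stability of HIF-1 alpha or of its hydroxylases, 2 were called higher and 2 lower, against 24.5% and 24.7% of all genes tested. *Siah1a*, a ubiquitin ligase for prolyl hydroxylases, went from 148 ± 60.5 to 332 ± 72.1 (log2 fold change 1.24, limma adjusted p = 0.0122), and part of its reads may be divided with a near-identical paralog. *Usp20*, a deubiquitinase of HIF-1 alpha, had 0.31 (limma adjusted p = 0.0332), and the call was lost in 10 alternatives, among them those without vehicle replicate 1 or 2 or melatonin replicate 1 or 2 (limma adjusted p between 0.0628 and 0.126). *Rack1*, a ribosomal scaffold that also promotes degradation of HIF-1 alpha without VHL, fell from 16179 ± 384 to 5900 ± 856 (log2 fold change -1.47, limma adjusted p = 3.59e-05). *Fkbp8*, a binding partner of PHD2, fell from 11550 ± 361 to 6389 ± 290.1 (log2 fold change -0.85, limma adjusted p = 7.3e-05).

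Around *Vegfa*, 7 of the 10 VEGF ligands and receptors were tested. None was called higher and 1, the co-receptor *Nrp2*, lower, against 24.5% and 24.7% of all genes tested. The median log2 fold change of -0.13 has no stable sign. It was 0.08 at a mean of at least 100, where *Pgf*, *Flt1* and *Nrp2* leave the list, 0.00 without vehicle replicate 3 and -0.28 without vehicle replicate 1. *Nrp2* was at 38.3, 34.7 and 26.2 normalized counts with vehicle and at 4.67, 13.1 and 15.1 with melatonin, and its call was lost without vehicle replicate 1 (limma adjusted p = 0.0581) or 2 (limma adjusted p = 0.0552). All melatonin values of *Pgf* and *Flt1* were at the floor. *Flt1* was above the floor in 1 vehicle sample, replicate 3, at 16.8. *Vegfd*, *Kdr* and *Flt4* had no row in the table.

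*P4ha1* and *Ero1a* belong to a list of 14 collagen hydroxylases and enzymes of oxidative folding in the endoplasmic reticulum. Of these, 9 were called higher, 1 lower and 4 not, against 24.5% and 24.7% of all genes tested, and the median log2 fold change was 0.33. With the transcript length correction the median was 0.20 and 7 were called higher. *Plod1*, a collagen lysyl hydroxylase, was at 371, 318 and 361 normalized counts with vehicle and at 1180, 932 and 958 with melatonin (log2 fold change 1.54, standard error 0.12, limma adjusted p = 5.55e-05). *P3h1*, a collagen prolyl 3-hydroxylase, had a log2 fold change of 1.16 (limma adjusted p = 0.000973) and *Ero1b*, the relative of *Ero1a*, one of 0.65 (limma adjusted p = 0.00202). The other 4 called higher were *Crtap*, *Plod2*, *Pdia3* and *Pdia4*. The 1 called lower was *P4ha3*, at 37.7 ± 9.8 with vehicle and 8.33 ± 7.39 with melatonin, and its call was lost without vehicle replicate 1, 2 or 3 (limma adjusted p = 0.0613, 0.103 and 0.0792).

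Other hypoxia targets were split by whether they serve glycolysis. Outside glycolysis, 33 of 38 listed genes were tested, none of them one of the 10 genes, and 13 were called higher, 9 lower and 11 not, against 24.5% and 24.7% of all genes tested, so the share called lower was near that of all genes. The median log2 fold change was 0.03. *Plod1*, *Plod2* and *P4ha2* also stand in the list of collagen hydroxylases, *Cited2* among the HIF subunits and coactivators and *Rora* among the ILC2 markers. The calls of *Plod1*, *Plod2* and *Rora* are thus counted in both of their lists. The 5 largest rises at a mean of at least 100 were those of *Mxi1*, an antagonist of MYC (log2 fold change 1.61), *Plod1*, the histone demethylase gene *Kdm4b* (1.26), the glycogen branching enzyme gene *Gbe1* (1.05) and *Bnip3l* (0.92), the relative of *Bnip3* in mitophagy. *Bnip3l* was at 1218, 1255 and 1145 normalized counts with vehicle and at 2318, 2330 and 2210 with melatonin, with no overlap. The 5 largest falls at that mean were those of the carbonic anhydrase gene *Car12* (-1.80), the cytokine gene *Mif* (-1.59), *Stc2* (-1.38), *Angptl4*, an inhibitor of lipoprotein lipase (-0.86), and the transferrin receptor gene *Tfrc* (-0.65). Below that mean, and picked after their values were seen, *Loxl2* (173 ± 27.0 to 17.8 ± 7.01 normalized counts, -3.27, limma adjusted p = 0.000105) and *Pdgfb* (-2.34, limma adjusted p = 0.0139) fell further. *Adm*, the gene of the vasodilator peptide adrenomedullin, was at the floor in every vehicle sample and at 5.60, 9.83 and 20.1 normalized counts with melatonin. Against a floor of 3 counts per library its mean was at least 4.06-fold higher.

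Of 19 glycolytic targets, 1 was called higher, 11 lower and 7 not, against 24.5% and 24.7% of all genes tested, with a median log2 fold change of -0.32. The 5 largest falls were those of *Gapdh* (-1.13), *Hk2* (-1.02), *Ldha* (-0.98), *Tpi1* (-0.93) and *Pgk1* (-0.77), each with a limma adjusted p of 0.000777 or less. *Ldha*, which turns pyruvate into lactate, went from 94077 ± 2208 to 47758 ± 3886 normalized counts (SD, n = 3 each). Several of these genes have many processed pseudogenes, among which the authors' counting can divide reads. The 1 called higher was *Pfkl*, a phosphofructokinase subunit gene (log2 fold change 0.24, limma adjusted p = 0.0169), which was not called without vehicle replicate 1 (limma adjusted p = 0.0812) or 2 (limma adjusted p = 0.0637). The difference between the 2 target lists was not tested.

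**Figure D4:**
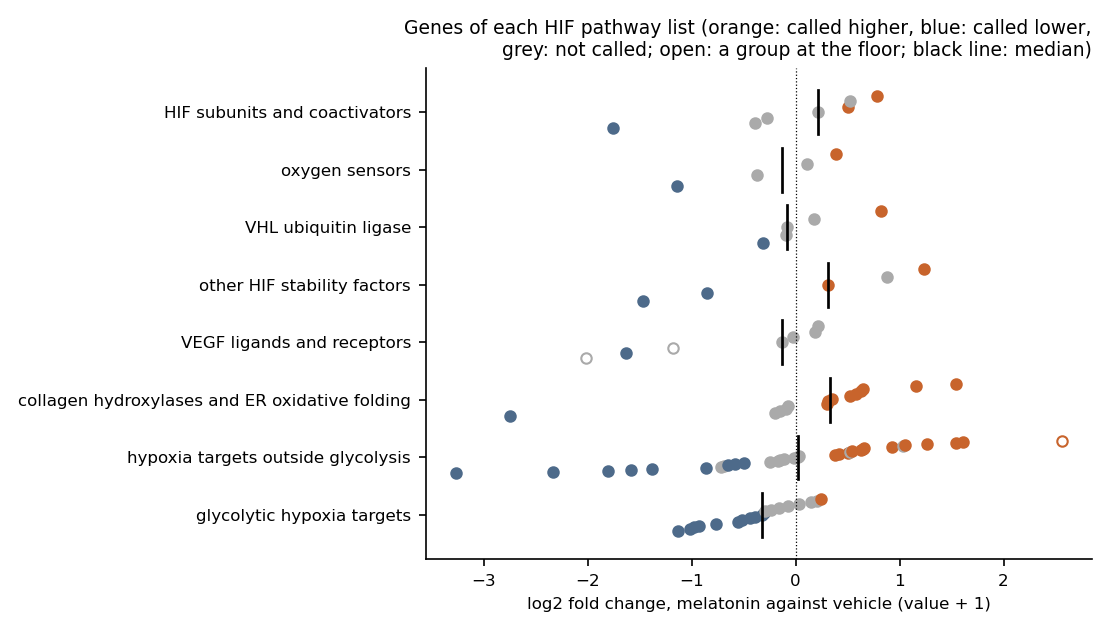
Log2 fold change, melatonin against vehicle, of every tested gene in 8 lists of the HIF pathway, with 1 point per gene and a black line at the list median. Open points are genes at the floor in a whole group, whose fitted values are no bound. The list of collagen hydroxylases and folding enzymes has its median at 0.33 and the glycolytic list at -0.32, and the targets outside glycolysis spread to both sides of 0.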

How the data were processed

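RNA was measured in 3 melatonin and 3 vehicle samples, grouped by their labels. The authors made cDNA with a SMARTer Ultra Low kit, which does not keep the strand (the methods and labels disagree on the RNA input), used Partek Flow to trim reads, mapped them to mm39 with STAR, quantified Gencode genes with an E/M algorithm that can divide reads, and scaled by DESeq2's median ratios. The deposited values are a signal, namely estimated counts over a size factor, called normalized counts here. Below 60, between 72.0% and 73.6% of the values of a sample were whole multiples of 1 read at a tolerance of 0.01, so whole reads were not recovered. The value of 1 read gave estimated counts and a floor of 3 counts, which cover counting error only. Release M39 of the annotation (GRCm39) named 16334 genes and gave positions, canonical transcript lengths and starts.

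limma 3.58.1 in R 4.3.3 (eBayes with trend, treatment as the only term) was fitted to the log2 of the value plus 1 for the 14419 genes that reached 10 in any sample, a scale that understates changes of low genes. P-values were adjusted by Benjamini-Hochberg over all of them, with a threshold of 0.05. On simulated data the fit recovered 200 of 200 changed genes and called 13 of 13617 unchanged ones. The changes were planted only in genes with a vehicle mean of at least 100, and all genes had the same simulated spread. Every planted change was larger than those of the called genes of the set other than *Egln3*. Recovery of changes as small as theirs was thus not tested. pandas 2.3.3, numpy 2.4.6, scipy 1.17.1 and matplotlib 3.10.9 were used.

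The genes and lists were chosen with earlier results of these data known. Besides the 10 genes, the text names the called genes of each list with the largest rise and fall (up to 3 each way, 5 for targets) at a mean of at least 100, list genes at the floor in a whole group, and the 5 genes nearest to *Hif1a*. *Epas1*, *Nrp2*, *P4ha3* and the other list genes outside this rule were named after their values were seen. The alternatives were pseudocounts of 0.1 and 10, no filter or a mean of at least 100, 3 other scalings, no trend, sample weights, voom, each sample left out, a block for the replicate number, a lowess correction for transcript length (span 0.3), a threshold of 0.01 and, added after the data had been seen, leaving out the libraries with *Xist*.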

Additional observations from a re-analysis of the deposited data

How the results depend on the processing

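Under 20 alternatives, *Hif1a*, *Hif1an*, *Egln3*, *Vhl*, *Bnip3* and *P4ha1* kept their direction and their call and *Vegfa* stayed uncalled, and no gene of the 10 changed direction. *Ero1a* lost its call in 8, *Egln1* gained one in 4 and *Egln2* in 1. The 10 genes held 2 called lower, not 1, under upper quartile scaling, under the transcript length correction and without the libraries with *Xist*, and between 1 and 2 with each sample left out in turn, and 5 or 6 called higher in the latter fits. At an adjusted p of 0.01, 2188 genes were higher and 2267 lower. With each sample left out, the counts over all genes were between 2747 and 3454 higher and between 2708 and 3619 lower. The glycolytic list had 0 called higher under upper quartile scaling, the length correction and the threshold of 0.01, and between 0 and 1 with each sample left out. Its median was -0.50 without the libraries with *Xist*, -0.45 with the length correction and between -0.45 and -0.30 with each sample left out. The median of the other target list was between -0.07 and 0.05 with each sample left out and -0.04 under upper quartile scaling, and so took both signs, and was 0.15 without the libraries with *Xist*. The causes of these shifts were not tested. For the 25 list genes that the naming rule gave beyond the 10, 480 of 500 values kept direction and call and 20 lost the call. *Nrp2* and *P4ha3*, named outside that rule, lost their calls in 3 and 6 alternatives.

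Upper quartile scaling moved the median of all genes most, to -0.07. With the replicate number as a block, the 10 genes had 6 called higher and 1 lower. Deviations of samples with the same number correlated at -0.11, 0.14 and -0.19 over 9990 genes, and those with unlike numbers at between -0.19 and 0.31. The numbers thus gave no sign of pairing, but with 3 samples in each group these correlations cannot exclude it. *Vegfa* and *Egln3* had the lowest estimated counts of the 10 genes, at 155 to 191 and 123 to 452 in a sample.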
